A study of Mus musculus with 4 samples.

Results

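The proteasome is the protease complex that degrades ubiquitin-tagged proteins, and its subunit genes were read in 4 KP mouse lung tumors. Genes were chosen by symbol alone, taking every mouse gene named Psma, Psmb, Psmc, Psmd, Psme, Psmf or Psmg followed by a number and leaving out Psmb8 and Psmb9. This rule gave 46 of the 39017 genes in the deposited count table and used no measured value. The members fell into 17 core genes, 22 regulatory genes and 7 assembly genes, and 44 of the 46 had a mean of at least 1 CPM, the normalized read count per 1000000 reads, and entered the tests.

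All 4 tumors formed 1 group, with 1 library per tumor. The mice were male, of the C57BL/6 strain, with p53Fl/Fl alleles and a K-ras allele that Cre recombinase switches on, the combination called KP. Each mouse was given 1500 viral units of lenti.PGK-Cre through the trachea, and tumors were cut out 22 weeks and 5 days later and dissociated to cell suspensions before RNA was taken. The PGK promoter is active in most cell types, so Cre could act in any lung cell that the virus entered. The labels also give a heterozygous fl/wt genotype without naming the gene, the deposited log2 columns mark the tumors as WT, and in the study's methods control mice had 1 or no floxed copy of Slc2a1. The study's methods describe both whole tumor suspensions and suspensions depleted of CD45+ cells, and the labels do not say which kind these were. Nothing in the labels says whether the 4 tumors came from separate mice, so p-values below measure the spread between these 4 samples, which may in part be technical.

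Total counts were between 8151613 and 8799007 per tumor, and the members held 0.520%, 0.420%, 0.460% and 0.423% of them in tumors 1 to 4. At this depth 3 counts, taken here as an approximate upper limit for a count of 0, corresponded to 0.330 to 0.370 CPM. Of the cell type markers, 6 of 6 alveolar type 2 genes were detected, with a summed level between 31082 CPM in tumor 1 and 57870 CPM in tumor 4. The 5 epithelial genes were also present, with a summed level of 2778 to 4262 CPM. Their sum was highest in tumor 1, as were Krt8, Krt18 and Epcam, whereas Cdh1 and Nkx2-1 were lowest there. The 7 leukocyte genes, none of them at 0, summed to 540 to 855 CPM. Most of this sum was Lcp1, at 412, 696, 542 and 568 CPM in tumors 1 to 4, whereas Ptprc was at 26.2, 35.8, 83.4 and 38.5 CPM. In bulk RNA of this kind, fewer cells of a type and less RNA per cell cannot be told apart.

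The proteasome is built from a hollow core particle and regulatory particles that cap its ends. The core is a stack of alpha and beta rings, in which the alpha rings gate the entry and the subunits encoded by Psmb5, Psmb6 and Psmb7 cut the protein chain. The regulatory particle has a base, with a ring of ATPases that unfold substrates, and a lid that removes ubiquitin. Other activators can take its place, and dedicated chaperones assemble the parts. In cells exposed to interferon, inducible catalytic subunits replace the constitutive ones, and the transcription factor encoded by Nfe2l1 is known to raise subunit transcription when proteasome activity falls.

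The promoters of 2 catalytic genes, Psmb5 and Psmb6, and of the inducible Psmb10 are shown as examples, picked because they differ in a motif searched for in all members. They do not stand for constitutive and inducible genes in general. The letters TGANNNNGC, in which N is any base, are a loose form of the core of the antioxidant response element that Nfe2l1 and its relatives recognize. Many matches to so open a string need not be such elements. Matches on either strand are in capitals. Each stretch is the 250 bases before the transcription start, written 5′ to 3′ on the gene's strand, from RefSeq on GRCm38.p6. They lie at chr14:54617996-54618245 on the minus strand, chr11:70525107-70525356 on the plus strand and chr8:105938393-105938642 on the minus strand.
Psmb5: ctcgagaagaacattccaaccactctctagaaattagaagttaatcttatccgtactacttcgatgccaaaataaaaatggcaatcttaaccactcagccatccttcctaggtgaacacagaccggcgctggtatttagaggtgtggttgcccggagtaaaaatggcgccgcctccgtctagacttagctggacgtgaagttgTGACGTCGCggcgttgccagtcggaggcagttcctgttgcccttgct
Psmb6: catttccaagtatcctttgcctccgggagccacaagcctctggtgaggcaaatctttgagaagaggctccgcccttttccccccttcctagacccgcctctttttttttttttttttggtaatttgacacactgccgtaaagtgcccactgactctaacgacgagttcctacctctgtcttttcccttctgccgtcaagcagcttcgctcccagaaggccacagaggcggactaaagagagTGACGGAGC
Psmb10: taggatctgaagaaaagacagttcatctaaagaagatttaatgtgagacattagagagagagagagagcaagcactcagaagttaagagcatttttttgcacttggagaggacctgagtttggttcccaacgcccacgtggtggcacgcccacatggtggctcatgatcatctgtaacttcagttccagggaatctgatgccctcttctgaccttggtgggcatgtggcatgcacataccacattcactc

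Psmb5 and Psmb6 each held 1 match in these stretches, both on the strand of the gene and near its start, and Psmb10 held none. RefSeq gave promoters of 300 bases, 250 before and 50 after the start, for 38 of the 46 members, 41 promoters in all. Searched on both strands, TGANNNNGC was found in 23 of these 41 (56.1%) and in 41.3% of all 32851 promoters of that length. Psmb7, the other constitutive catalytic gene, was not among the 21 members with a match. A member without a promoter in RefSeq could not have one. The letters TGACTCA, a 7-base string with no open position, were found in 1 of 41 (2.44%), that of Psmd9, against 5.20% of all promoters. CCAAT, the letters bound by the factor NF-Y, was found in 13 of 41 (31.7%) against 37.4%. No string contains another whole, but matches of different strings can share bases in a promoter. A match describes the letters only, and binding was not measured.

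Levels of different genes were compared per length, as CPM per kb of merged exons, because a longer transcript yields more reads. By this measure the 7 alpha ring genes and the 7 constitutive beta ring genes had medians of 49.1 and 46.9 CPM per kb. The 6 base ATPases had a median of 47.9 CPM per kb, the 3 base subunits without ATPase activity 33.3, the 8 lid genes 32.8, the 5 other activators and inhibitor 28.4 and the 7 assembly genes 11.9. Where the length of the longest transcript was used instead, each of these medians was higher, at 75.2, 89.9, 68.0, 60.8, 57.4, 36.7 and 15.9 CPM per kb. Of these groups the assembly genes had the lowest median on both lengths.

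**Figure D1:**
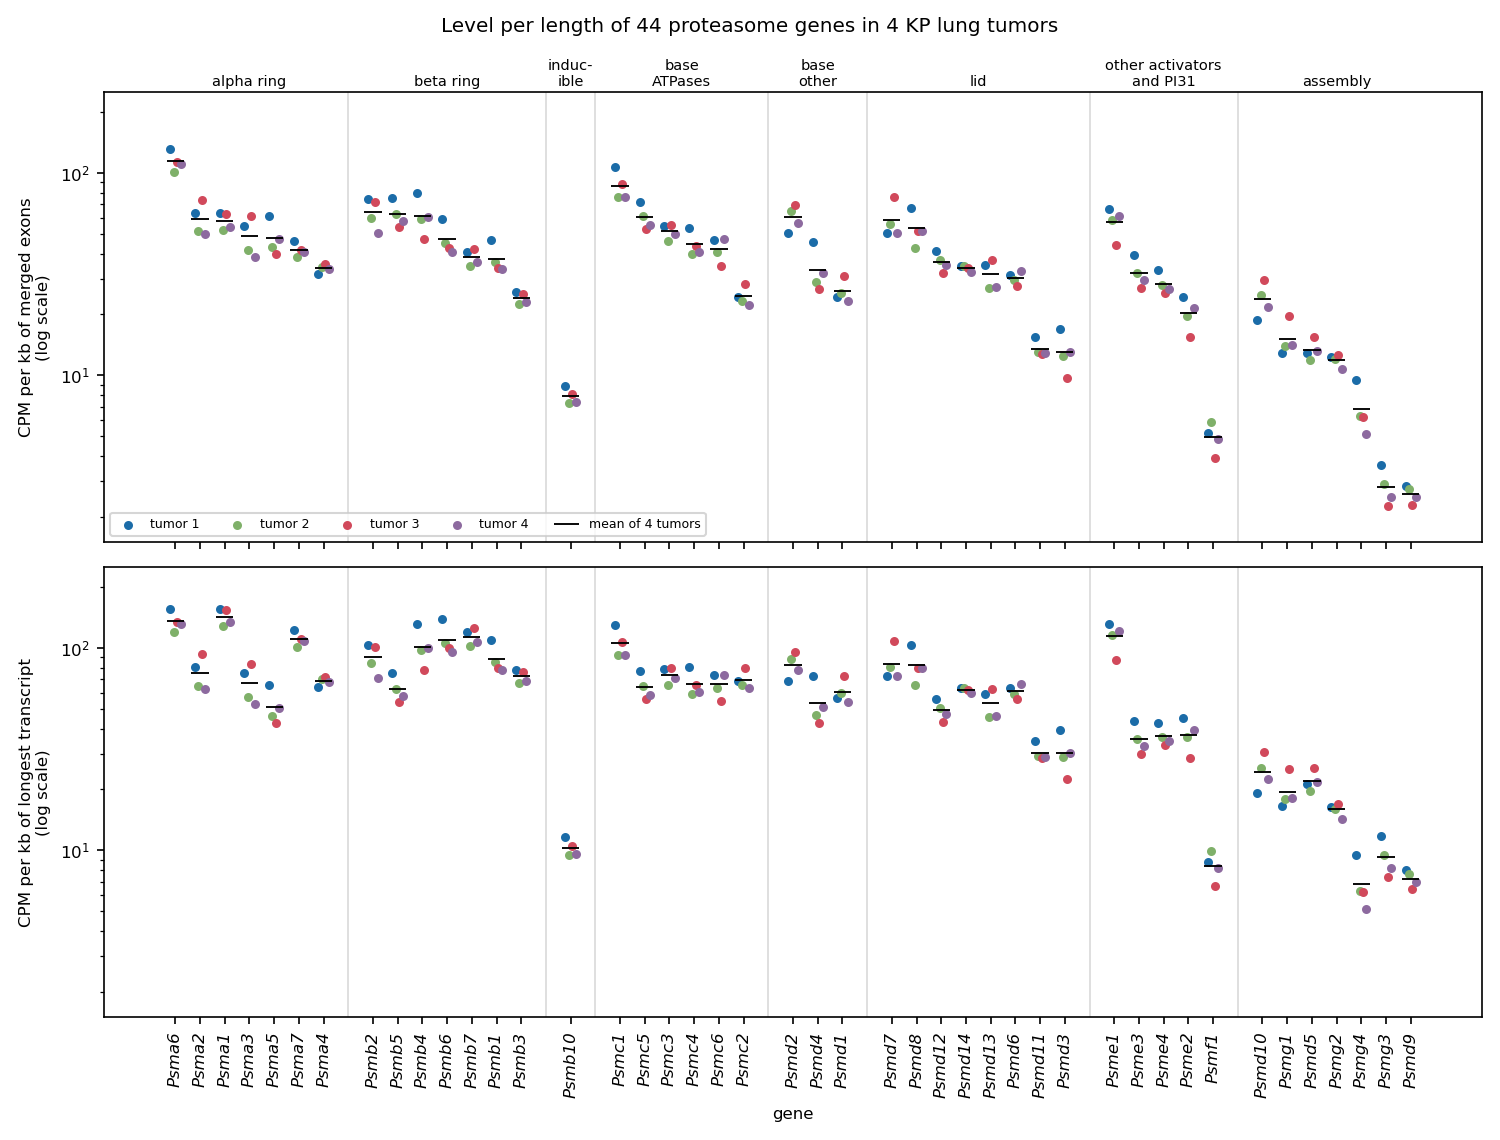
Level of the 44 tested proteasome genes in CPM per kb (log scale), with the length taken as merged exons in the upper panel and as the longest transcript in the lower panel, where each dot is 1 tumor and each bar the mean of 4 tumors. The constitutive core genes run from 24.2 CPM per kb of merged exons for Psmb3 to 114 for Psma6. Psmb10, the lid genes Psmd3 and Psmd11, Psme2, Psmf1 and the assembly genes have lower means than Psmb3 on that length.

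In the alpha ring, which encodes the gate of the core, Psma6 had the highest level and Psma4 the lowest. Psma6 was at 131, 102, 113 and 111 CPM per kb of merged exons in tumors 1 to 4, and Psma4 at 31.5, 34.5, 35.5 and 33.6. The tumors' values of these genes did not overlap. Between them, in falling order, came Psma2, Psma1, Psma3, Psma5 and Psma7, with means between 41.6 and 59.6 CPM per kb. In the beta ring, which holds the active sites, Psmb2 had the highest mean, at 74.0, 60.1, 71.7 and 50.6 CPM per kb. It was highest only in tumor 3, since Psmb5 was above it in tumors 1, 2 and 4 and Psmb4 in tumors 1 and 4. Psmb3 was the lowest in each tumor, at 25.9, 22.5, 25.4 and 23.0. Psmb2 and Psmb3 both encode subunits without catalytic activity. On the longest transcript Psmb7 had the highest mean of this ring at 114 CPM per kb and Psmb5 the lowest at 62.6. The 14 constitutive core genes, whose proteins occur in equal numbers in each core particle, thus spanned a 4.73-fold range of mean level on merged exons and a 2.79-fold range on the longest transcript. Their order was mostly not resolved. Of 13 neighbors in the order, 4 kept the same order in 4 of 4 tumors on merged exons and 2 of 13 did so on the longest transcript, for which Psma1 had the highest mean at 143 CPM per kb and Psma5 the lowest at 51.2.

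The 3 constitutive catalytic genes were read in full. Psmb5, which encodes the chymotrypsin-like site and is the main target of bortezomib, was at 67.9, 56.6, 48.6 and 51.9 CPM in tumors 1 to 4 (chr14:54614119-54618022). Psmb6, which encodes the caspase-like site, was at 111, 84.0, 79.7 and 76.6 CPM (chr11:70525367-70527858). Both were highest in tumor 1. Psmb7, which encodes the trypsin-like site, was at 140, 119, 145 and 124 CPM and was highest in tumor 3 (chr2:38588036-38644087). Per kb of merged exons their mean levels were 62.6 ± 9.37, 46.9 ± 8.47 and 38.5 ± 3.67 (SD, n = 4) for Psmb5, Psmb6 and Psmb7, and on the longest transcript the order was turned, at 62.6 ± 9.37, 110 ± 19.9 and 114 ± 10.8.

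Psmb10, which encodes the inducible subunit that takes the place of Psmb7, was present at a low level in all 4 tumors, at 15.2, 12.4, 13.8 and 12.6 CPM (chr8:105935735-105938444). Within each tumor its level per kb was below that of Psmb7, by 2.27 ± 0.079 (SD, n = 4) on the log2 scale, a 4.84-fold difference. The difference was in the same direction in 4 of 4 tumors (p = 0.125 by an exact sign-flip test, two-sided, adjusted p = 0.125 over 6 pairs), and 0.125 is the smallest p that 4 tumors allow. Psmb10 made up 17.9%, 17.4%, 16.1% and 17.0% of the summed level per kb of Psmb7 and Psmb10 in tumors 1 to 4, a mean of 17.1% ± 0.78. With the longest transcript the share was 8.33% ± 0.42 and the difference 10.97-fold. The spread of Psmb10 between tumors was not detectable beyond counting noise at this depth. The 12 interferon-response genes on a list of such genes summed to 195 to 216 CPM over the 4 tumors.

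The tissue-restricted core genes were at or near 0. Psma8, an alpha ring gene known from the testis, had 0, 6, 3 and 6 counts in tumors 1 to 4. Psmb11, which replaces Psmb5 in the thymic cortex, had 0 counts in 4 of 4 tumors, for which the approximate upper limit was 0.330 to 0.370 CPM.

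Among the base ATPases, Psmc1 had the highest level at 107, 75.8, 88.0 and 75.8 CPM per kb of merged exons and Psmc2 the lowest at 24.5, 23.4, 28.1 and 22.4. Psmc3, Psmc4, Psmc5 and Psmc6 lay between them, with means of 42.2 to 60.4 CPM per kb. On the longest transcript the 6 ATPases spanned only a 1.65-fold range. Psmc1 was still highest there, but Psmc5 had the lowest mean at 64.0 CPM per kb and Psmc2 was at 69.3. Of the other base genes, Psmd2, which encodes a large scaffold of the base, was at 50.3, 64.6, 69.9 and 56.8 CPM per kb. Psmd1, the other scaffold, was lower at 24.3, 25.5, 31.0 and 23.3, and the ubiquitin receptor gene Psmd4 had a mean of 33.3. In the lid, Psmd7, which encodes the partner of the deubiquitinase, had the highest mean, at 50.7, 56.1, 76.1 and 50.7 CPM per kb. Psmd3 had the lowest mean, at 17.0, 12.5, 9.74 and 13.0. Neither order held in all tumors, since in tumors 1 and 4 Psmd8 was above Psmd7 and Psmd11 was below Psmd3. The deubiquitinase gene Psmd14 and the lid genes Psmd6, Psmd8, Psmd11, Psmd12 and Psmd13 had means between 13.5 and 53.2 CPM per kb.

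The activators that can replace the regulatory particle differed in level. Psme1 and Psme2 encode the partners of PA28 alpha-beta, an activator linked to antigen processing, and are neighbors on chromosome 14 (chr14:55578123-55581529 and chr14:55587441-55591113). Psme1 was at 146, 129, 97.4 and 135 CPM and Psme2 at 43.2, 34.8, 27.4 and 37.8 CPM. Both were highest in tumor 1 and lowest in tumor 3. Per kb Psme1 exceeded Psme2 by 1.5 ± 0.054 on the log2 scale in 4 of 4 tumors. The level of Psme2 is uncertain, because Psme2b, a near-identical copy with 1 merged exon at chr11:48945354-48946190, held 78.2, 75.9, 55.7 and 70.5 CPM, more than Psme2 itself in each tumor.

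Psme3, which encodes the nuclear activator PA28 gamma, was at 116, 94.6, 79.5 and 87.4 CPM, and Psme4, which encodes the activator PA200, at 278, 235, 215 and 225 CPM. Psmf1, the gene of the proteasome inhibitor PI31, was at 33.6, 37.9, 25.3 and 31.3 CPM. These 3 genes were likewise lowest in tumor 3. Psme1 exceeded Psme3 per kb by 0.84 ± 0.15 on the log2 scale, and Psme3 exceeded Psme4 by 0.17 ± 0.074, each in 4 of 4 tumors. On the longest transcript the difference between Psme3 and Psme4 turned to -0.056, so their order rests on the choice of length. The exact p was 0.125 for each of these pairs, adjusted p = 0.125, on merged exons.

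The assembly genes were the least abundant of the groups with more than 1 tested gene, and above Psmb10 in median level per kb. Psmg1 and Psmg2 encode partner chaperones that build the alpha ring. Psmg1 was at 17.3, 18.8, 26.4 and 18.9 CPM and Psmg2 at 21.3, 20.9, 22.0 and 18.7 CPM. Psmg1 was highest in tumor 3, whereas Psmg2 stayed within 18.7 to 22.0 CPM. Per kb Psmg1 exceeded Psmg2 by 0.33 ± 0.24 on the log2 scale in 4 of 4 tumors (exact p = 0.125, adjusted p = 0.125).

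Psmg3 and Psmg4, also chaperone partners, had the fewest reads. Psmg3 was at 10.5, 8.36, 6.54 and 7.26 CPM and Psmg4 at 5.28, 3.48, 3.46 and 2.85 CPM, on 281 and 130 counts over all tumors. Both were highest in tumor 1. Per kb Psmg3 was below Psmg4 by 1.27 ± 0.20 on the log2 scale, whereas on the longest transcript it was above it by 0.45, so the direction was set by the length used (exact p = 0.125 for both). Of the chaperones of the base, Psmd10, which encodes gankyrin, was highest at 18.8, 25.0, 29.7 and 21.9 CPM per kb, Psmd9 was lowest at 2.85, 2.74, 2.30 and 2.49, and Psmd5 had a mean of 13.4 ± 1.52.

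Levels of most members varied between the 4 tumors, as did those of most tested genes. Their spread was below that of all tested genes, but closer to it among genes of at least 20 CPM. Of the 44 tested members, 37 varied beyond counting noise when their counts were tested by chi-square against Poisson sampling, with Benjamini-Hochberg adjustment over all 14225 tested genes, a share of 84.1% against 76.7% of all tested genes. For 12 members (27.3%) the highest tumor was at least 1.5 times the lowest, against 56.6% of all tested genes, and none of the members reached 2 times, against 28.1%. The count of 12 rested on 2 tumors, falling to 2 without tumor 1 and to 3 without tumor 3. The median SD of log2 CPM was 0.21 over the members and 0.29 over all tested genes, and 39 of 44 members were under that median, against 50% of all tested genes by construction. Low-count genes raised the median of all genes. Among the 8253 genes with a mean of at least 20 CPM the median SD was 0.23, and 23 of 40 members were below it. The median ratio of the highest to the lowest tumor was 1.44 over these genes and 1.38 over these 40 members. The coefficient of variation beyond counting noise was taken from the edgeR dispersion of each gene. Its median was 14.1% over the members and 18.0% over all tested genes, and 8.23% over the members without tumor 1. Among genes of at least 20 CPM it was 14.1% over 40 members and 15.5% over all 8253 genes.

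**Figure D2:**
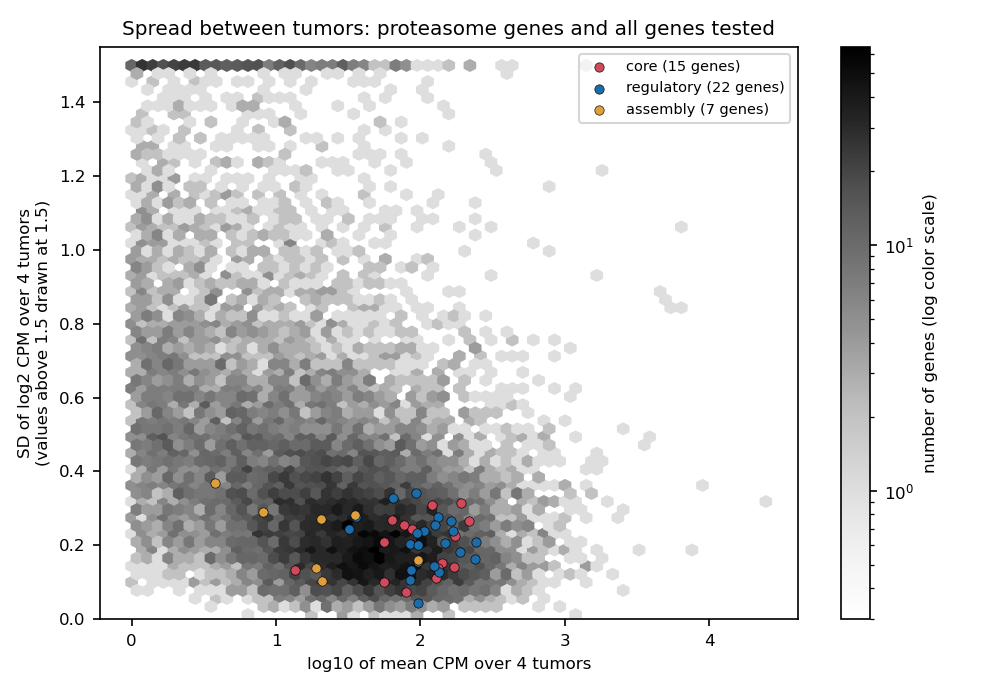
SD of log2 CPM over the 4 tumors against log10 of the mean CPM, with all tested genes as shaded hexagons (number of genes on a log color scale) and the 44 proteasome genes as points colored by core, regulatory or assembly part. The members run from an SD of 0.043 for Psmd14 to 0.37 for Psmg4, with a median of 0.21 against 0.29 for all tested genes.

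The steadiest members were found in the core, the lid and the assembly group. Psmd14, the deubiquitinase of the lid, was at 97.5, 98.2, 95.3 and 91.9 CPM (SD 0.043 on the log2 scale), and Psma4 at 74.7, 81.7, 84.0 and 79.6 CPM (SD 0.072). Psmb3 was at 59.5, 51.7, 58.4 and 52.8 CPM (SD 0.10), Psmg2 at the values above (SD 0.10) and Psmd6 at 87.7, 82.5, 77.6 and 92.1 CPM (SD 0.11). No tumor was set apart in these 5 genes. By the gap to the nearest other tumor over the whole range, only Psmd11 of the 44 members had a tumor apart, tumor 1, against 5.86% of all tested genes. Psma4, Psmb3, Psmb10, Psmd9, Psmd14, Psmg2 and Psmg4 were the 7 members whose spread did not pass the test (adjusted p between 0.067 and 0.581), and for Psmg4, which had the largest SD of all members, the mean of 3.77 CPM left wide counting error.

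The 5 largest SDs belonged to Psmg4 (0.37), Psmd4, Psmd3, Psma3 and Psmb4. Psmd4 was at 128, 81.7, 74.9 and 89.7 CPM, Psmd3, which encodes a lid subunit, at 84.5, 62.1, 48.4 and 64.7 CPM, and Psmb4 at 156, 115, 92.4 and 118 CPM. These 3 genes were highest in tumor 1 and lowest in tumor 3, with the highest tumor 1.71, 1.75 and 1.69 times the lowest. Psma3 was at 213, 163, 238 and 150 CPM and had another order, highest in tumor 3 and lowest in tumor 4. The remaining members at or above 1.5 times were Psmg4 (1.83), Psmg3 (1.59), Psmd10 (1.58), Psme2 (1.58), Psmd8 (1.57), Psma5 (1.53), Psmg1 (1.53) and Psmd7 (1.502).

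By tumor, 26 of 44 members had their highest level in tumor 1, against 31.4% of all tested genes, and 14 in tumor 3, against 30.2%. Tumors 2 and 4 were each highest for 2 members, against 20.4% and 18% of all tested genes. The lowest level fell in tumor 3 for 17 members (32.5% of all tested genes), in tumor 2 for 12 (19.4%), in tumor 4 for 11 (17.7%) and in tumor 1 for 4 (30.4%). The members' median deviation from their own mean over the tumors was 0.18, -0.05, -0.01 and -0.08 on the log2 scale in tumors 1 to 4, and 36 of 44 members were above their own mean in tumor 1. When counts were scaled by library size alone, 31 members were highest in tumor 1.

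The groups did not share 1 profile. The other activators and the inhibitor, 5 genes together, formed the most uniform group. All 5 were lowest in tumor 3, against 32.5% of all tested genes, with a median deviation of -0.32 there. Psme1 and Psme2 are on chromosome 14 and Psme3 and Psme4 on chromosome 11, where other genes had median deviations of -0.25 and -0.19 in tumor 3. Psmf1 is on chromosome 2, where that median was 0.0004. The part of the chromosome in this profile was not tested. In the beta ring, 6 of 7 constitutive genes were highest in tumor 1, all but Psmb7. Among them was Psmb1, at 215, 168, 156 and 153 CPM in tumors 1 to 4. The assembly genes were split, with Psmg1, Psmg2, Psmd5 and Psmd10 highest in tumor 3 and Psmg3, Psmg4 and Psmd9 highest in tumor 1. The lid was split as well, since Psmd3 and Psmd7 deviated by 0.41 and -0.18 in tumor 1 and by -0.40 and 0.40 in tumor 3.

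**Figure D3:**
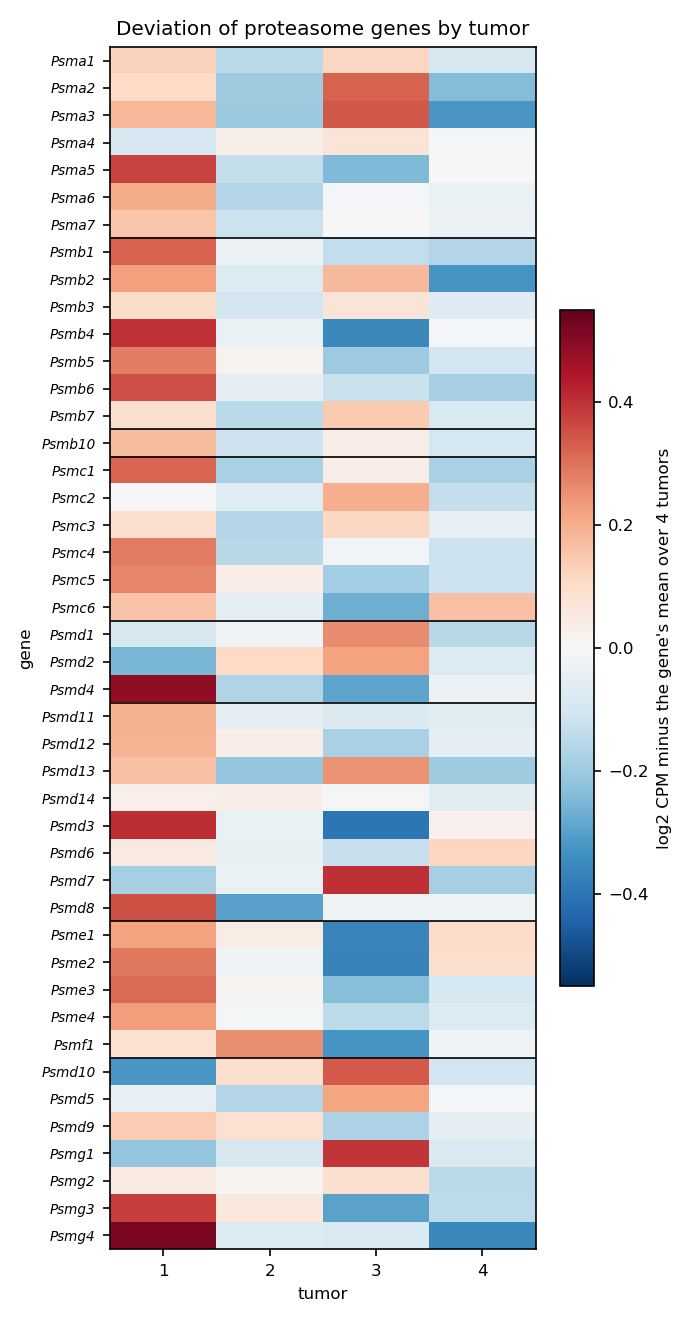
Deviation of each of the 44 tested proteasome genes from its own mean over the 4 tumors (log2 CPM, color scale), with genes in rows ordered by group and tumors in columns. Red prevails in the column of tumor 1, where 36 of 44 genes were above their mean, and the 5 activator and inhibitor genes are blue in tumor 3.

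Members on several chromosomes deviated alike, and in the direction of the other genes there. This comparison was made after the values had been seen, and it set each member against the median deviation of the other genes of its chromosome with a mean of at least 10 CPM, members left out. On chromosome 3 the 523 other genes had a median deviation of 0.26 in tumor 1 and -0.35 in tumor 3. Above their own mean were 78.0% of them in tumor 1 and 16.3% in tumor 3. How many other genes of a chromosome were highest or lowest in a tumor was not counted. Its members Psma5 (chr3:108256926-108279974), Psmb4 (chr3:94884093-94886961) and Psmd4 (chr3:95032694-95042614) were all highest in tumor 1 and lowest in tumor 3, the first of them at 81.0, 57.0, 52.8 and 62.7 CPM. Chromosome 16 had the opposite shift, with a median of -0.34 over 332 other genes in tumor 1 and 0.11 in tumor 3. On this chromosome 12.0% of the other genes were above their own mean in tumor 1 and 68.1% in tumor 3. There Psmd2 was at 203, 261, 282 and 229 CPM, and both Psmd2 (chr16:20651652-20663414) and Psmg1 (chr16:95979933-95990960) were lowest in tumor 1 and highest in tumor 3.

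Chromosome 11 carried 8 members, namely Psmb3, Psmb6, Psmc5, Psmd3, Psmd11, Psmd12, Psme3 and Psme4. The 801 other genes had a median deviation of 0.14 in tumor 1 and -0.19 in tumor 3. Of these genes, 72.3% were above their own mean in tumor 1 and 23.8% in tumor 3. Among the members, 8 of 8 were highest in tumor 1 and 6 of 8 lowest in tumor 3. On chromosome 14 the median over 351 other genes was -0.25 in tumor 3 and 0.19 in tumor 4. Its 5 tested members, Psmb5, Psmc6, Psmd6, Psme1 and Psme2, were all lowest in tumor 3, where 18.2% of the other genes were above their own mean. In tumor 4, 4 of the 5 were above their own mean, near the share of 82.6% of the other genes. On chromosome X the gankyrin gene Psmd10 was at 27.6, 36.7, 43.7 and 32.1 CPM, and its deviations of -0.32 in tumor 1 and 0.34 in tumor 3 had the sign of the chromosome medians of -0.15 and 0.21. Not all members followed their chromosome. In tumor 3, for example, Psma3 on chromosome 12 deviated by 0.34 where the chromosome median was -0.04, Psmd13 on chromosome 7 by 0.25 where it was -0.11, and Psmf1 on chromosome 2 by -0.32 where it was close to 0. In tumor 1 the farthest on the other side of 0 was Psmg3 on chromosome 5, at 0.38 where the median was -0.02.

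**Figure D4:**
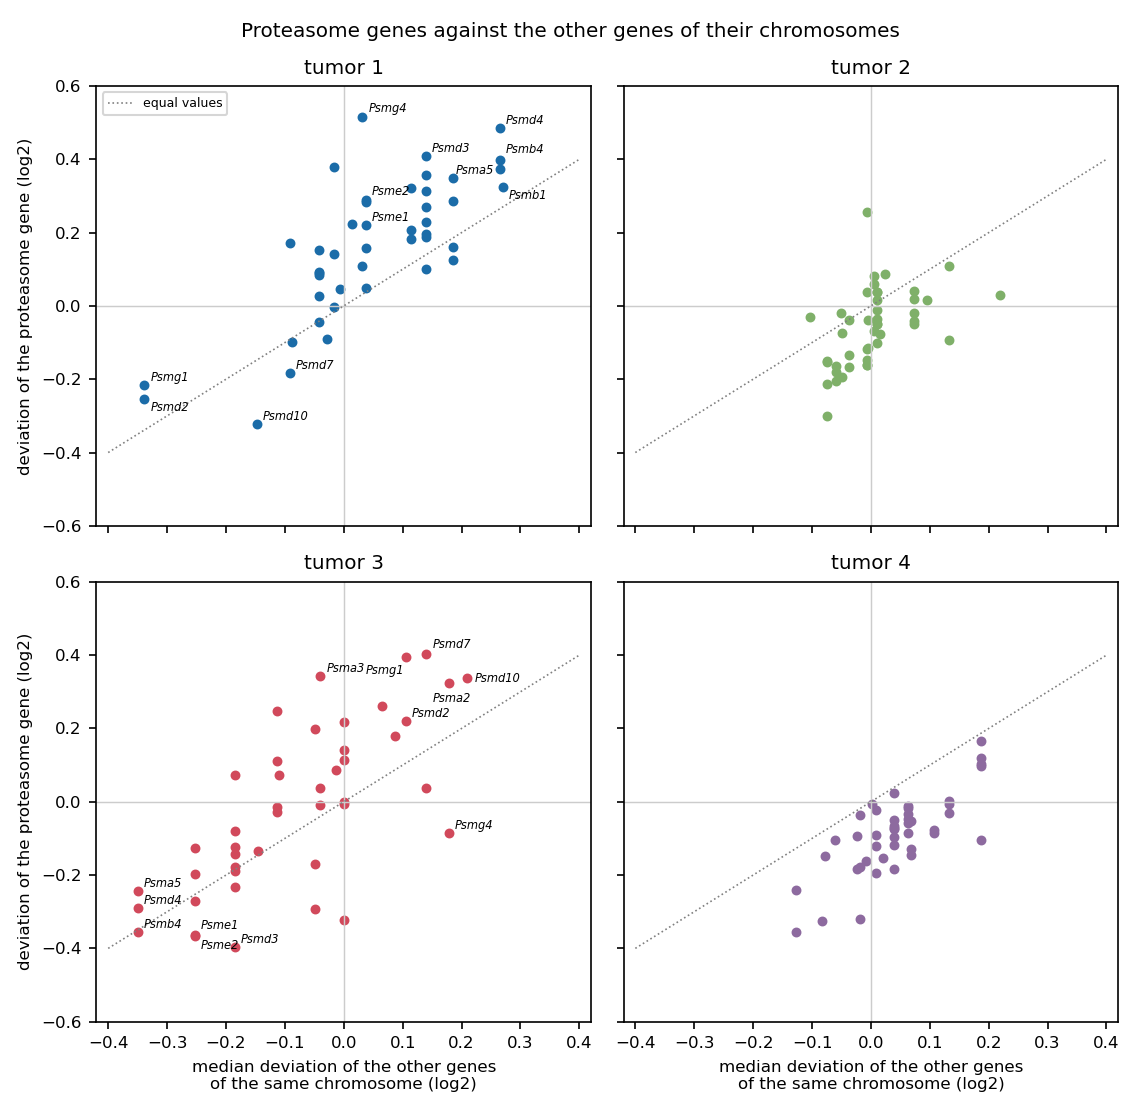
Deviation of each tested proteasome gene from its own mean (log2 CPM, vertical axis) against the median deviation of the other genes of its chromosome (log2, horizontal axis), 1 panel per tumor and 1 point per gene, with a dotted line of equal values. In tumors 1 and 3, where the chromosome medians reached -0.34 and -0.35, members of shifted chromosomes such as Psmd4, Psmb4, Psmd2 and Psmg1 lie near or beyond the dotted line on the same side of 0.

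Over the 44 members, the deviation and the chromosome median had a Pearson r of 0.77, 0.50, 0.73 and 0.76 across genes in tumors 1 to 4 (Spearman rho 0.73, 0.60, 0.73 and 0.65), given as a description, since members of a chromosome share its median and all values of a tumor come from 1 library. The member was on the same side of 0 as its chromosome in 35 of 44 cases in tumor 1 (79.5%, against 61.7% of all tested genes), in 31 of 44 in tumor 2 (70.5%, against 59.9%) and in 32 of 44 in tumor 3 (72.7%, against 62.3%). Tumor 4 was the reverse, with 17 of 44 on the same side (38.6%, against 59.5%), since 38 of 44 members were below their own mean there. Subtracting the chromosome medians lowered the SD of 29 of 44 members, a count that was not made over all tested genes. The subtraction left 61.2% of the members' summed squared deviations, against 96.1% of those of all tested genes. Among genes of at least 20 CPM it left 55.8% over 40 members and 89.4% over all 8253 genes. The median SD fell to 0.15 over the members and to 0.26 over all tested genes. The count of members at or above 1.5 times fell from 12 to 4, and the share of all tested genes from 56.6% to 50.2%. The count of members lowest in tumor 3 fell from 17 to 7, but the count lowest in tumor 4 rose from 11 to 23. By tumor, the members' summed squared deviations fell from 2.74 to 1.27 in tumor 1, from 0.619 to 0.512 in tumor 2 and from 2.25 to 1.25 in tumor 3, and rose from 0.828 to 0.910 in tumor 4. The count highest in tumor 1 was 25 after the subtraction and 26 before it. DNA was not measured in these files, and the part of chromosome copy number was not tested.

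Deviations by base composition and the levels of cell type markers also differed between tumors 1 and 3. In tumor 1 the median deviation of all tested genes with a GC value rose from -0.08 in the fifth of genes with the lowest GC content to 0.18 in the fifth with the highest, and in tumor 3 it fell from 0.07 to -0.13. Among the members the deviation had an r of 0.43 with GC content in tumor 1 and -0.36 in tumor 3, across genes. Subtracting the medians of GC classes left 91.0% of the members' summed squared deviations, against 98.3% of those of all tested genes. The median SD was then 0.20 over the members and 0.28 over all tested genes. At or above 1.5 times were 8 members, and 54.7% of all tested genes. The 6 proliferation genes summed to 379 to 571 CPM and 5 of 6 were highest in tumor 1. Of the leukocyte genes 6 of 7 were highest in tumor 3, as were 3 of 3 macrophage genes in the table, which summed to 99.8 to 198 CPM. The 4 T cell genes summed to 4.53 to 18.9 CPM and the 3 endothelial genes to 161 to 207 CPM. The 4 fibroblast genes summed to 182 to 348 CPM and the 3 red blood cell genes to 15.3 to 34.9 CPM. The fibroblast genes were divided, with Col1a1 and Col1a2 highest in tumor 1 and Dcn and Pdgfra highest in tumor 3. The part of GC content and of these cell types in the members' spread was not tested.

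Of 27 other proteasome and ubiquitin genes listed beside the members, 26 were in the table and tested. Of these 26, 21 varied beyond counting noise (76.7% of all tested genes), 10 had a highest tumor at least 1.5 times the lowest (56.6%) and 19 had an SD under the median of all tested genes. Adrm1, which encodes a ubiquitin receptor of the base, was the steadiest at 45.4, 47.3, 45.3 and 47.9 CPM (SD 0.041). Rps27a, which encodes ubiquitin fused to a ribosomal protein, had the largest SD at 70.3, 134, 56.1 and 198 CPM (SD 0.84), but it has near-identical copies among which its reads could be divided. Nfe2l1, the transcription factor gene introduced above, is on chromosome 11 as well, and its level was 228, 205, 134 and 184 CPM (SD 0.33, adjusted p = 2.0e-45). It was highest in tumor 1 and lowest in tumor 3, with tumor 2 above tumor 4. The members Psmb5, Psmc5, Psmd9, Psmd11, Psmd12, Psme3, Psme4 and Psmg3 had the same order, of which Psmd9 did not vary beyond counting noise. Psmc5, Psmd11, Psmd12, Psme3 and Psme4 are on chromosome 11, like Nfe2l1. Psma5, Psmb4, Psmd3, Psmd4, Psme1 and Psme2 were also highest in tumor 1 and lowest in tumor 3, but with tumor 4 above tumor 2. The other members had other orders. Of all tested genes, 31.4% were highest in tumor 1 and 32.5% lowest in tumor 3, but the share with either full order was not counted. A link between Nfe2l1 and the members was not tested.

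The reads of some members could not be assigned with certainty. Among the 46 members, 18 had a run of 80 nt or more in common, at 97% identity or above, with a transcript of some other gene, and 11 of these overlapped exons of another gene. Psma3 had a processed pseudogene, Gm13835, with 1402 counts of its own beside the gene's 6536, Psma5 had Gm8394 with 863 beside 2182, and Psmd2 had Gm5422 with 1262 beside 8307. Psmb7 overlapped the exons of Nek6 on the opposite strand by 405 bases. The strand setting of the counting is not given in the sources used here, so reads of Psmb7 and Nek6 in that overlap cannot be told apart.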

How the data were processed

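RNA of 4 KP lung tumors was sequenced as single-end reads from stranded TruSeq mRNA libraries made from 500 ng of total RNA. Per the submitters' processing notes, the authors used bcl2fastq 2.17, Cutadapt 1.4.2, HISAT2, featureCounts 1.4.4 and edgeR with the genome build mm10. The strand setting and annotation release are not given in the sources used here. The authors deposited raw counts per gene, and 156068 of 156068 values were equal between the single and the combined tables. They also deposited log2 normalized counts (TMM and voom in the study's methods), which served as an alternative. All columns were used, and the number left out was 0.

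Library totals were multiplied by TMM factors to give effective sizes (edgeR 4.0.16, R 4.3.3). CPM is the count per 1000000 of the effective size, and log2 CPM had 0.5 added to each count and 1 to each size. Genes with a mean of at least 1 CPM were tested for spread with chi-square statistics that set the counts of a gene beside Poisson expectations (3 degrees of freedom, Benjamini-Hochberg over all tested genes). This test was run on simulated data first. The coefficient of variation beyond counting noise is the square root of edgeR's gene-wise dispersion with an intercept only, which has a lower limit of 3.85%, reached by 4 members. The 6 pairs of members were compared within tumors by sign-flip permutation, exact and two-sided. A tumor counted as apart where its gap to the nearest other over the range exceeded Dixon's 95% limit for 4 samples. Reads carried no molecular identifiers, so counting noise and floors cover counting error only.

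Lengths and positions were those of GENCODE M21 on GRCm38, promoters those of RefSeq, and copies were found with BLAST 2.17.0. Every member was named. Full values were given for the catalytic genes, Psmb10, Psma8, Psmb11, the activators, Psmf1, Psmg1 to Psmg4, the highest and lowest level per kb of each group, and the 5 largest and 5 smallest SDs. Of the listed pathway genes, 1 (Paaf1) was not matched, and Sem1 and Ecpas were taken under their older symbols. Protein sequences were not analysed here. Alternatives were DESeq2 1.42.0 size factors and dispersions, library size alone, other filters and offsets, the deposited log2 table, the length of the longest transcript and leaving out each tumor. The chromosome and GC subtractions were added after seeing the data. The members and lists were chosen with earlier results of these data known.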

Additional observations from a re-analysis of the deposited data

Results flagged for a closer look

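Psmd11, which encodes a lid subunit, was at 98.7 CPM in tumor 1 and at 83.2, 81.4 and 82.2 CPM in tumors 2 to 4, so that tumor 1 lay far from the others. On the log2 scale its gap to the nearest tumor was 0.89 of the range and passed Dixon's limit for 4 samples, as chance does in about 1 of 20 groups. The limit was passed by 5.86% of all tested genes. It was the only one of 44 members (2.27%) with a tumor apart, and 2 members passed with counts scaled by library size alone. Psmd11 is on chromosome 11, where the other genes had a median deviation of 0.14 in tumor 1, and 23 other genes of the annotation carry near-identical stretches of it.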

How the results depend on the processing

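Over 27 results and 14 alternatives, 183 of 219 recomputed values kept their direction and lay within the tolerance set for them, 34 moved and 2 were reversed. The count of 37 members beyond counting noise stayed between 29 and 39 under each alternative run for it. With the longest transcript in place of merged exons, Psme3 minus Psme4 was reversed to -0.056 and Psmg3 minus Psmg4 to 0.45 on the log2 scale, the Psmb10 share moved to 8.33%, and the group medians to 75.2 (alpha ring), 89.9 (beta ring), 68.0 (ATPases), 60.8 (other base), 57.4 (lid) and 15.9 CPM per kb (assembly).

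Subtracting chromosome medians gave 4 members at or above 1.5 times, a median SD of 0.15, 1 member lowest in tumor 1, 7 in tumor 3 and 23 in tumor 4, and 0 highest in tumor 4. Subtracting GC medians gave 1 member highest in tumor 2 and 0 in tumor 4. Library size alone gave 1 member highest in tumor 2, 1 in tumor 4 and 2 with a tumor apart. The median SD of all genes was 0.44 with no filter and 0.23 at 20 CPM or more.

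Leaving out 1 tumor at a time gave 2 to 11 members at or above 1.5 times, a median SD of 0.14 to 0.24 over members and 0.24 to 0.31 over all genes, and a coefficient of variation of 8.23% to 16.1%. The members highest were then 2 to 13 in tumor 2, 14 to 22 in tumor 3 and 2 to 9 in tumor 4, and those lowest 13 to 20 in tumor 2 and 14 to 21 in tumor 4. The cause of these moves was not tested.

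No paired analysis was possible because the samples form 1 group, with no other group to pair them with, and the gene pairs were compared within each tumor. The design cannot reach an exact p under 0.125 for a pair. Few reads, such as the 130 counts of Psmg4, limit the spread that is detectable.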
